A study of Bos taurus with 12 samples.

Results

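The genes described here encode subunits of respiratory complex I, the NADH:ubiquinone oxidoreductase of the inner mitochondrial membrane. They were found by symbol: every probe set whose annotation named exactly 1 gene and whose symbol began with NDUFA, NDUFAB, NDUFB, NDUFC, NDUFS or NDUFV followed by a number, with the NDUFAF assembly factors left out. This gave 38 genes, carried by 50 of the 24016 non-control probe sets, among 9155 genes with such a probe set. Each gene is represented by its brightest probe set over the 12 arrays.

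The series profiled pools of in vitro embryos of Japanese Black cattle on an Affymetrix bovine array. The 4 groups, each with 3 arrays, were day 7 expanded blastocysts from oocytes of prepubertal heifers, day 7 expanded blastocysts from oocytes of adult cows, day 3 embryos of 8 to 16 cells from prepubertal heifers, and day 3 embryos of 8 to 16 cells from adult cows. Heifers were 9 to 12 months old and their ovaries came from farms, whereas cow ovaries came from an abattoir, so donor age and source of the ovaries cannot be told apart. In all groups the oocytes were matured in serum-containing medium, fertilized with thawed semen and cultured under the same low-oxygen protocol, and RNA from 10 blastocysts or 50 day 3 embryos was amplified before labelling. The sources used here do not say whether the pools had donors, semen or culture days in common. A p-value therefore does not reach beyond these pools, and it rests mostly on a spread estimated across all probe sets. Because each array read a pool of whole embryos, a change in the share of a cell type and a change in RNA per cell cannot be told apart.

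Complex I passes electrons from NADH to ubiquinone and pumps protons out of the matrix as it does so. Its matrix arm holds the N module, where NADH is oxidized at a flavin, and the Q module, where a chain of iron-sulfur clusters hands the electrons to ubiquinone. Its membrane arm is built in a proximal and a distal part around proton-pumping subunits that are encoded in mitochondrial DNA. The catalytic core is surrounded by accessory subunits, needed mainly for assembly and stability. In mammalian embryos oxidative phosphorylation gains weight towards the blastocyst, whose trophectoderm, the outer epithelium, spends much energy on pumping ions into the cavity.

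The array named all 11 N module genes looked for, 5 Q module genes, 9 of the proximal and 11 of the distal membrane arm, along with NDUFA4 and NDUFA4L2. NDUFA4 is now placed with cytochrome c oxidase rather than complex I, and NDUFA4L2 is its hypoxia-responsive relative. The mitochondrially encoded ND subunits are not analysed here. All values below are MAS5 signals as log2(signal + 16). Levels of different genes are not compared, because each probe set has its own affinity.

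More complex I genes were detected in blastocysts than in day 3 embryos, in both donor groups. A gene counted as detected on an array when its signal was above that array's background, the highest of 27 Bacillus subtilis control probe sets. In prepubertal blastocysts 35, 32 and 33 of the 38 genes were above background, against 7, 9 and 2 in prepubertal 8-16-cell embryos. The adult blastocyst arrays had 26, 30 and 27 above it, against 19, 22 and 14 in adult 8-16-cell embryos. Every blastocyst array counted more of the genes than any 8-16-cell array of its donor group.

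Counted over whole groups, 28 of the 38 genes (73.7%) were above background on all 3 prepubertal blastocyst arrays and 21 (55.3%) on all 3 adult blastocyst arrays. In prepubertal 8-16-cell embryos this held for 1 gene (2.63%), NDUFA4, and in adult 8-16-cell embryos for 9 (23.7%). Over all probe sets the same shares were 15.9%, 14.1%, 3.69% and 12.6%. The median complex I gene stood above the median probe set of its own array by 3.75 ± 0.64 log2 units in prepubertal blastocysts and 2.81 ± 0.71 in adult blastocysts (SD, n = 3 each). It stood above it by 0.74 ± 0.52 in prepubertal and 0.87 ± 0.34 in adult 8-16-cell embryos (SD, n = 3 each).

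**Figure D1:**
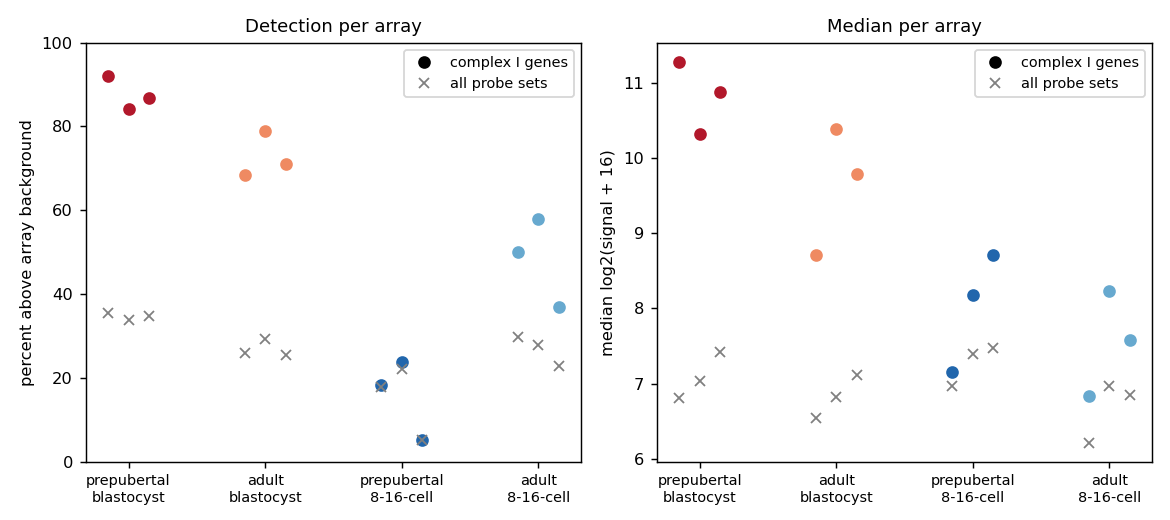
Left, the percentage of the 38 complex I genes (filled circles) and of all 24016 probe sets (crosses) above array background, for each of the 12 arrays in 4 groups. Right, the median log2(signal + 16) of the same sets on each array; complex I genes stand clear of all probe sets in blastocysts, and on the prepubertal 8-16-cell arrays both detection shares nearly coincide.

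An array of the day 3 embryos stood apart. Replicate 3 of the prepubertal 8-16-cell group had a background of 1664 signal units, against 122 to 424 on the other 11 arrays. It had 5.23% of all probe sets above background, and its 100 brightest probe sets held 49.3% of its summed signal, against 23.3% to 32.7% elsewhere. The array's hybridization controls averaged 3.03 times as high in prepubertal 8-16-cell pools as in adult ones. In blastocysts this ratio was 1.06. Between stages, the controls averaged 19.14 log2 units in prepubertal 8-16-cell pools and 17.89 in prepubertal blastocysts, against 17.54 and 17.80 in the adult pools. A detection count in prepubertal 8-16-cell embryos therefore sits beside a higher background (356 to 1664) than one in adult 8-16-cell embryos (122 to 251). The background in prepubertal blastocysts was 172 to 254. The part of these array differences in the donor comparison of day 3 embryos, the prepubertal stage comparison and the donor by stage interaction was not tested.

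The stage was tested first within each donor group, with limma fitted across all probe sets and Benjamini-Hochberg adjustment over the 24016. In the prepubertal group 9 of the 38 complex I genes rose in blastocysts and 0 fell, while 1.43% of all probe sets rose and 0.912% fell. They were NDUFS4, NDUFA12 and NDUFA6 of the N module, NDUFS3 and NDUFA5 of the Q module, NDUFC2 and NDUFA13 of the proximal arm, and NDUFB1 and NDUFB3 of the distal arm. At an unadjusted p under 0.05 there were 21, all higher, beside 1420 higher and 1885 lower of all 24016 probe sets. A positive difference was seen for 33 of the 38 (40.7% of all probe sets). For 22 of them all 3 blastocyst arrays lay above all 3 arrays of day 3 embryos (7.35% of all probe sets), and for 0 they lay below (9.24%). The median difference was 3.15 over the 38 genes and -0.37 over all probe sets.

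In the adult group 2 of the 38 rose, NDUFS4 and NDUFB6, and 0 fell, while 1.26% of all probe sets rose and 0.870% fell. At an unadjusted p under 0.05 there were 13, all higher, beside 1530 higher and 1145 lower of all 24016 probe sets. The difference was positive for 32 genes (52.2% of all probe sets). The groups did not overlap for 11 genes, all higher in blastocysts (9.55% of all probe sets), and 0 lay below (7.62%). The median was 1.66 over the 38 genes and 0.08 over all probe sets. NDUFS4 alone passed in both donor groups. That 8 genes passed in the prepubertal group and not in the adult group does not show a difference between donors: the donor by stage interaction called 0 of them, as given below.

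Averaged over both donor groups, the stage difference passed for 15 of the 38 genes, all higher in blastocysts, and 0 were lower; 3.90% of all probe sets rose and 2.51% fell. Both single-group comparisons share their arrays with this average. The additional genes were NDUFB6, NDUFA7, NDUFV2, NDUFA9, NDUFS5 and NDUFB5. At an unadjusted p under 0.05 there were 24, all higher, beside 2020 higher and 1993 lower of all 24016 probe sets. The difference was positive for 34 genes (44.0% of all probe sets). In 8 of the 38 genes all 6 blastocyst arrays lay above all 6 arrays of day 3 embryos (2.17% of all probe sets), and in 0 they lay below (1.27%). The median was 2.44 over the 38 genes, against -0.17 over all probe sets. Log2 differences, their medians and limma p-values use the signals as deposited, also at or below background, unless a floor is named. A fold given as at least N-fold raises the signals of a group that was above background on no array to the background. In an average over donors this is done for each such day 3 group, and any other day 3 group is left as deposited. Where an unraised group also had arrays at or below background, the averaged fold is called partly raised and is not a lower bound. The p beside a fold of either kind tests the difference without any raising, not the fold itself. Without NDUFA4 and NDUFA4L2 the counts were still 9, 2 and 15, of 36.

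**Figure D2:**
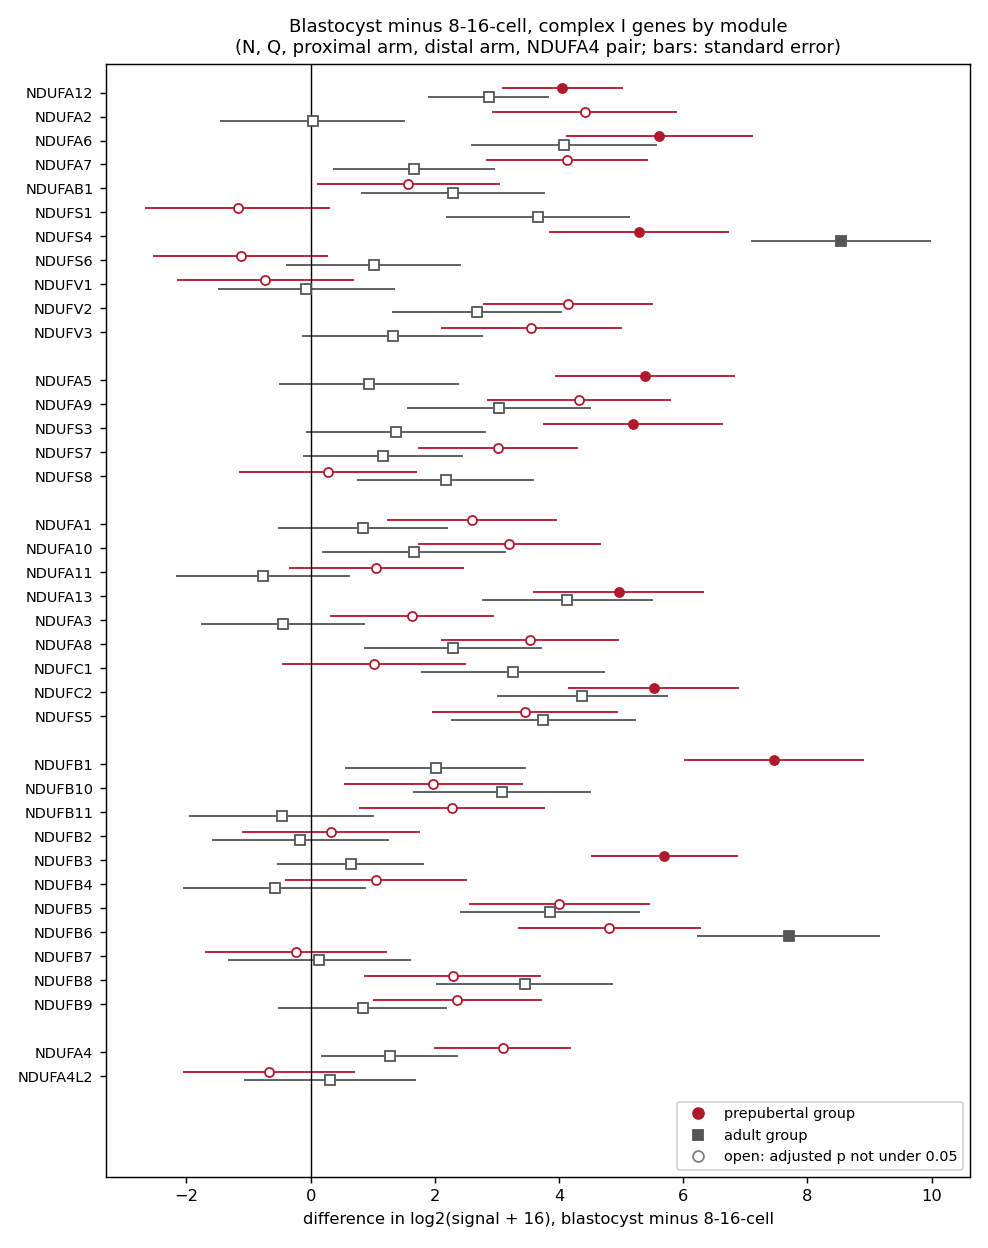
Blastocyst minus 8-16-cell difference in log2(signal + 16) for each of the 38 complex I genes, grouped by module, with its standard error; circles are the prepubertal group, squares the adult group, and filled symbols passed at an adjusted p under 0.05. Most symbols lie right of 0 in both groups, and NDUFS4 is filled in both.

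The N module oxidizes NADH, and 5 of its 11 genes passed in the average over donors (3 in the prepubertal and 1 in the adult group). NDUFS4, an accessory subunit that holds the N module to the rest of the enzyme and whose loss causes Leigh syndrome in humans, read 13.80, 11.88 and 12.61 in prepubertal blastocysts against 4.94, 8.66 and 8.82 in prepubertal 8-16-cell embryos. It read 13.96, 13.12 and 12.89 in adult blastocysts against 5.03, 4.67 and 4.64 in adult 8-16-cell embryos. All 6 blastocyst values were high and none of the 6 day 3 values was above background, so that the fold is a lower bound. Between stages it was at least 10.7-fold in the prepubertal group (limma adjusted p = 0.0219) and at least 48.0-fold in the adult group (adjusted p = 2.32e-05). Averaged over donors it was at least 22.7-fold (limma adjusted p = 7.1e-08).

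NDUFA12, an accessory subunit of the matrix arm, had 14.74, 14.95 and 15.13 in prepubertal blastocysts against 12.06, 10.05 and 10.57 in prepubertal 8-16-cell embryos. The adult pools had 14.86, 14.13 and 15.82 at the blastocyst stage against 12.51, 11.30 and 12.39 on day 3. The gene was well above background on day 3 in all but 1 array, and the stages did not overlap in either group. It rose by 4.05 (SE 0.97, limma adjusted p = 0.00536) in the prepubertal group, the difference in the adult group was 2.87 (SE 0.97, adjusted p = 0.102), and the average was 3.46 (SE 0.69, adjusted p = 9.47e-05).

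NDUFA6 carries an LYR motif and docks the acyl carrier protein NDUFAB1 onto the matrix arm. Prepubertal blastocysts had 13.42, 9.05 and 13.62 against 5.82, 8.28 and 5.14 in prepubertal 8-16-cell embryos, and adult blastocysts had 10.27, 12.44 and 10.59 against 6.09, 10.41 and 4.54 in adult 8-16-cell embryos. Prepubertal blastocyst replicate 2 was low, yet above all 3 day 3 pools of its group. Adult 8-16-cell replicate 2 was high and overlapped the adult blastocysts. The rise in the prepubertal group was at least 6.43-fold (limma adjusted p = 0.0177). In the adult group the difference was 4.08 (SE 1.50, adjusted p = 0.154). On average over donors it was 10.4-fold, partly raised (limma adjusted p = 0.000513).

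NDUFV2, a core subunit with an iron-sulfur cluster beside the flavin, read 12.21, 11.92 and 11.72 in prepubertal blastocysts against 6.98, 8.10 and 8.35 in prepubertal 8-16-cell embryos. Adult blastocysts gave 12.10, 11.96 and 13.27 against 7.56, 10.36 and 11.39 in adult 8-16-cell embryos. The stages were apart in both groups, with a wider gap in the prepubertal one. NDUFV2 passed on the average over donors, at least 6.24-fold higher (limma adjusted p = 0.0132), while the prepubertal (adjusted p = 0.0839) and adult (adjusted p = 0.458) comparisons did not pass.

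NDUFA7, a small accessory subunit of the matrix arm, had 9.70, 10.72 and 8.64 in prepubertal blastocysts against 5.18, 5.74 and 5.75 in prepubertal 8-16-cell embryos. The adult blastocysts read 6.85, 7.48 and 5.14 against 4.52, 4.60 and 5.35 in adult 8-16-cell embryos. It was above background on the 3 prepubertal blastocyst arrays and on none of the other 9, so no fold is given for the average over donors, which passed (limma adjusted p = 0.0353).

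Of the other N module genes, NDUFV1, the core subunit that binds NADH and the flavin, was the only gene of the 38 with a negative difference in both donor groups, at -0.73 and -0.07 (limma adjusted p = 0.876 and 0.997), and was above background on 3 of the 12 arrays. NDUFS1, the core subunit with the most iron-sulfur clusters, had 10.00, 8.84 and 4.50 in prepubertal blastocysts against 8.66, 9.31 and 8.89 in prepubertal 8-16-cell embryos, and 9.79, 9.87 and 12.20 in adult blastocysts against 6.37, 8.30 and 6.20 in adult 8-16-cell embryos. Its stages overlapped in the prepubertal group, where 1 blastocyst array was at background, and were apart in the adult group, where the difference of 3.66 did not pass (adjusted p = 0.24). The 2 further NDUFS1 probe sets, each above background on 2 of the 12 arrays, had adult differences of 0.93 and 0.35. NDUFS6, a zinc-binding accessory subunit, was at or below background on all 3 prepubertal blastocyst arrays and on 2 of 3 arrays in each other group. NDUFA2, NDUFAB1 and NDUFV3 had differences of 2.22, 1.93 and 2.44 averaged over donors and did not pass (adjusted p = 0.247, 0.344 and 0.171).

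The Q module reduces ubiquinone, and 3 of its 5 measured genes passed in the average over donors (2 in the prepubertal and 0 in the adult group). NDUFS3, a core subunit on which assembly of the matrix arm begins, read 12.66, 11.21 and 12.28 in prepubertal blastocysts against 5.32, 5.73 and 9.51 in prepubertal 8-16-cell embryos. In the adult group blastocysts read 11.31, 10.34 and 10.32 against 8.18, 10.91 and 8.75 on day 3, where all 3 pools were above background and replicate 2 reached into the blastocyst range. The rise was at least 6.52-fold in the prepubertal group (limma adjusted p = 0.0254), against a difference of 1.38 in the adult group (SE 1.45, adjusted p = 0.853). The average was at least 4.12-fold (limma adjusted p = 0.0293).

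NDUFA5, an accessory subunit of the matrix arm, showed the same arrangement. It had 12.73, 11.11 and 10.96 in prepubertal blastocysts against 4.68, 8.71 and 5.27 in prepubertal 8-16-cell embryos. Adult blastocysts had 11.22, 10.13 and 11.93 against 11.42, 10.996 and 8.05 in adult 8-16-cell embryos. The adult stages overlapped, with 2 of the 3 day 3 pools in the blastocyst range. The rise in the prepubertal group was at least 4.78-fold (limma adjusted p = 0.0187) and the adult difference 0.94 (SE 1.45, adjusted p = 0.923). The average was 3.03-fold, partly raised (limma adjusted p = 0.0389).

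NDUFA9, a reductase-like accessory subunit that binds a nucleotide at the foot of the matrix arm, had 10.93, 10.78 and 13.27 in prepubertal blastocysts against 8.43, 5.30 and 8.31 in prepubertal 8-16-cell embryos. Its adult values were 11.59, 9.36 and 7.68 in blastocysts against 6.35, 7.52 and 5.66 in 8-16-cell embryos. No day 3 array was above background, and adult blastocyst replicate 3 was not either. The average over donors passed, at least 4.17-fold higher (limma adjusted p = 0.0137). Within a donor group the difference was at least 4.98-fold (prepubertal, adjusted p = 0.104) and at least 3.50-fold (adult, adjusted p = 0.413), and neither passed. The core subunits NDUFS7 and NDUFS8, which carry the iron-sulfur clusters nearest to ubiquinone, were above background on no day 3 array and did not pass in the average (adjusted p = 0.192 and 0.618).

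The proximal membrane arm joins the matrix arm to the pumping part, and 3 of its 9 genes passed in the average over donors (2 in the prepubertal and 0 in the adult group). NDUFC2, an accessory subunit of this arm, read 12.30, 13.82 and 12.42 in prepubertal blastocysts against 7.22, 8.42 and 6.32 in prepubertal 8-16-cell embryos, and 12.73, 12.49 and 13.55 in adult blastocysts against 9.52, 9.12 and 6.99 in adult 8-16-cell embryos. The 6 blastocyst arrays lay close together and clear of every day 3 array. The rise was at least 11.3-fold in the prepubertal group (limma adjusted p = 0.00847) and the adult difference 4.38 (SE 1.38, adjusted p = 0.0658). The average was 15.3-fold, partly raised (limma adjusted p = 7.81e-05).

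NDUFA13, also known as GRIM-19, spans the membrane close to the matrix arm and was first described as a cell death regulator. Prepubertal blastocysts had 12.57, 13.02 and 13.03 against 7.12, 8.53 and 8.09 in prepubertal 8-16-cell embryos, and adult blastocysts had 11.31, 12.58 and 13.39 against 9.28, 7.51 and 8.08 in adult 8-16-cell embryos. Again no blastocyst array came near a day 3 array. The prepubertal rise was at least 11.5-fold (limma adjusted p = 0.0247) and the adult difference 4.13 (SE 1.38, adjusted p = 0.0928). The average was 14.2-fold, partly raised (limma adjusted p = 0.000368).

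NDUFS5, an accessory subunit on the intermembrane-space side, had 11.60, 8.94 and 11.87 in prepubertal blastocysts against 7.63, 5.84 and 8.59 in prepubertal 8-16-cell embryos. In adult blastocysts it had 10.19, 10.69 and 9.49 against 4.35, 4.96 and 9.82 in adult 8-16-cell embryos. The adult stages overlapped through 8-16-cell replicate 3 alone. The average over donors passed, 6.08-fold higher, partly raised (limma adjusted p = 0.0175). Neither donor group did on its own (adjusted p = 0.247 prepubertal and 0.222 adult). The 6 other proximal arm genes, NDUFA1, NDUFA3, NDUFA8, NDUFA10, NDUFA11 and NDUFC1, did not pass in the average, where the smallest limma adjusted p was 0.0644 (NDUFA8, at background on all 6 day 3 arrays). Of these NDUFA1, a small membrane subunit, NDUFA10, which resembles nucleoside kinases, and NDUFA8, a subunit of the intermembrane-space side, had all 3 prepubertal blastocyst arrays above all 3 prepubertal 8-16-cell arrays. NDUFC1 had this order in the adult group.

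The distal membrane arm lies around the outermost proton pumps, and 4 of its 11 genes passed in the average over donors (2 in the prepubertal and 1 in the adult group). NDUFB6, an accessory subunit of this arm, read 11.94, 11.46 and 11.09 in prepubertal blastocysts against 4.45, 8.52 and 7.09 in prepubertal 8-16-cell embryos. It read 11.39, 11.73 and 13.95 in adult blastocysts against 4.65, 4.57 and 4.76 in adult 8-16-cell embryos. Like NDUFS4, it was above background on all 6 blastocyst arrays and on no day 3 array. The adult rise was at least 24.6-fold (limma adjusted p = 0.000216), the prepubertal difference at least 4.44-fold without passing (adjusted p = 0.053), and the average at least 10.5-fold (adjusted p = 2.03e-06).

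NDUFB1, a small single-pass accessory subunit, had 14.10, 12.13 and 15.07 in prepubertal blastocysts against 5.19, 7.88 and 5.83 in prepubertal 8-16-cell embryos. Its adult values spread widely, at 8.11, 13.24 and 11.12 in blastocysts against 7.99, 11.80 and 6.64 in 8-16-cell embryos, and overlapped. The prepubertal rise was at least 21.4-fold (limma adjusted p = 0.000213) and the adult difference 2.01 (SE 1.45, adjusted p = 0.717). The average was 9.30-fold, partly raised (limma adjusted p = 0.000453).

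NDUFB3, also a small subunit of the distal arm, had 13.30, 14.07 and 14.65 in prepubertal blastocysts against 7.11, 9.23 and 8.58 in prepubertal 8-16-cell embryos. In adult pools it was bright at both stages, at 14.55, 13.22 and 11.30 in blastocysts against 12.51, 11.50 and 13.14 in 8-16-cell embryos. It rose by 5.70 in the prepubertal group (SE 1.18, limma adjusted p = 0.000679), the adult difference was 0.65 (SE 1.18, adjusted p = 0.943), and the average was 3.17 (SE 0.84, adjusted p = 0.00584).

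NDUFB5, a further accessory subunit, had 11.45, 11.77 and 9.69 in prepubertal blastocysts against 7.20, 8.16 and 5.54 in prepubertal 8-16-cell embryos, and 12.17, 11.95 and 11.43 in adult blastocysts against 8.26, 8.61 and 7.13 in adult 8-16-cell embryos. The stages were apart in both groups by like amounts. The average passed, 6.67-fold higher, partly raised (limma adjusted p = 0.00542). The prepubertal difference of at least 3.09-fold (adjusted p = 0.132) and the adult difference of 3.85 (SE 1.45, adjusted p = 0.176) did not pass.

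The 7 other distal arm genes had average differences from -0.05 for NDUFB7 to 2.87 for NDUFB8 (limma adjusted p = 0.992 and 0.0661). NDUFB2 was above background on 10 of the 12 arrays and had a difference of 0.08 (adjusted p = 0.986). NDUFB9, an LYR-motif subunit like NDUFA6, was also bright. It had 12.12, 11.53 and 11.84 in prepubertal blastocysts against 8.53, 10.61 and 9.27 in prepubertal 8-16-cell embryos (difference 2.36, limma adjusted p = 0.454). In the adult group the stages overlapped, at 10.41, 10.93 and 11.05 against 10.48, 10.64 and 8.77 (difference 0.84, adjusted p = 0.932). Its average of 1.60 did not pass either (adjusted p = 0.427). Outside the complex proper, NDUFA4 was above background on all 12 arrays. It had 13.85, 13.49 and 13.55 in prepubertal blastocysts against 9.03, 10.45 and 12.14 in prepubertal 8-16-cell embryos, and 13.78, 12.81 and 13.54 in adult blastocysts against 11.84, 12.74 and 11.73 in adult 8-16-cell embryos. Its stages did not overlap in either group, but its average of 2.18 did not pass (adjusted p = 0.0744).

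**Figure D3:**
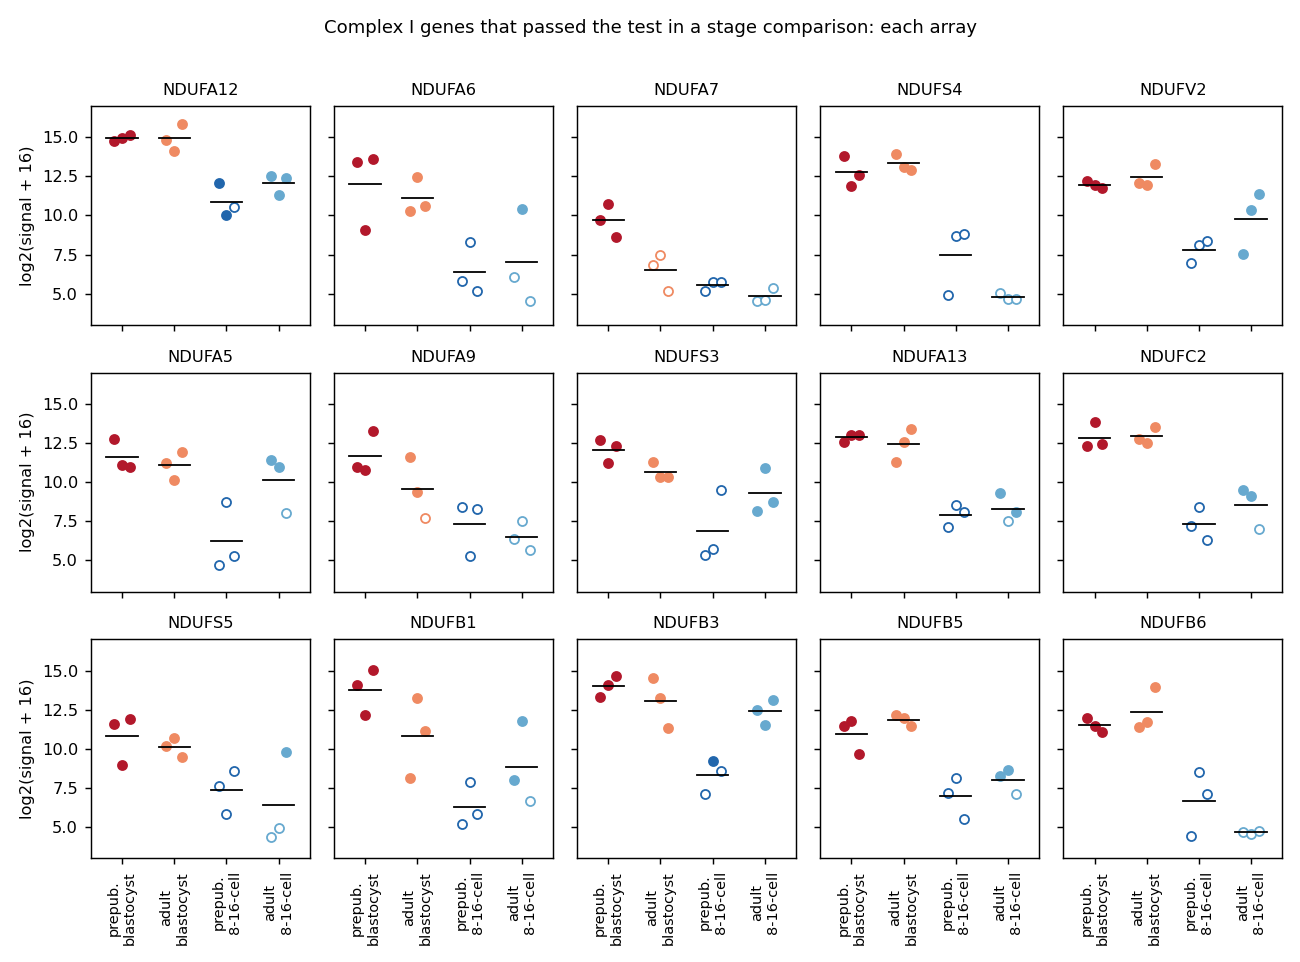
log2(signal + 16) on each array for the 15 complex I genes that passed in at least 1 stage comparison; bars are group means, filled circles lie above array background and open circles at or below it. In prepubertal pools the day 3 values of most genes are open, whereas those of NDUFA12 are filled in all but 1 day 3 array. In adult pools the day 3 values of NDUFA12, NDUFB3, NDUFV2 and NDUFS3 are filled on all 3 arrays. Those of NDUFA13, NDUFC2, NDUFA5, NDUFB1 and NDUFB5 are filled on 2 adult day 3 arrays.

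By role, 2 of the 6 measured core subunits (NDUFV2 and NDUFS3) and 13 of the 30 accessory subunits passed in the average over donors, with median differences of 1.67 and 2.70. No test compared the 2 classes. Further probe sets existed for 10 of the 38 genes, 12 in all. The 2 further NDUFA5 probe sets also passed on average, with fitted log2 differences of 3.17 and 3.46 (limma adjusted p = 0.0418 and 0.0227), beside 3.16 for the brightest. In the adult group their stage differences were 3.12 and 3.11, beside 0.94 for the brightest. Their interactions were 0.10 and 0.71, beside 4.44 for the brightest. The further probe set of NDUFB1 was above background on 0 of 12 arrays and that of NDUFS3 on 1, and their stage differences in the prepubertal group were -0.60 and 0.12. That of NDUFA7 was above background on 1 array, with an average stage difference of 0.79 (limma adjusted p = 0.727). The calls for NDUFB1, NDUFS3 and NDUFA7 thus rest on 1 of 2 probe sets each. Genes outside these 10 had only 1 probe set.

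Some of these calls depended on single arrays. In the prepubertal group the count of 9 went down to 4, 4 and 3 without prepubertal blastocyst replicate 1, 2 or 3, and to 4 without prepubertal 8-16-cell replicate 1, and was 9 without the outlying replicate 3 and 10 without replicate 2 of that group. Of the 9 genes, 8 were among those that passed without replicate 3, where NDUFA6 was lost, and 8 without replicate 2, where NDUFS3 was lost. NDUFB1 and NDUFB3 passed whichever array was left out, with limma adjusted p up to 0.0118 and 0.0199. In the adult group NDUFS4 and NDUFB6 passed throughout, and the count of 2 became 5 without prepubertal 8-16-cell replicate 3, an array that enters this comparison only through the shared spread. In the average over donors 8 of the 15 passed whichever array was left out: NDUFS4, NDUFA12, NDUFA6, NDUFC2, NDUFA13, NDUFB1, NDUFB5 and NDUFB6. NDUFA7 was lost under 9 of the 12 omissions, NDUFS3 and NDUFA5 under 8, NDUFS5 under 5, NDUFA9 under 3, NDUFV2 under 2 and NDUFB3 under 1. With every signal raised to the highest background of the 12 arrays, 1 (NDUFA12), 0 and 5 genes passed in the prepubertal, adult and averaged comparisons, and 4 of the 5 (NDUFS4, NDUFA12, NDUFA13 and NDUFC2) were among the 15.

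The donor groups, which differ in age and in the source of the ovaries, were compared next for complex I transcript levels. In blastocysts limma called 0 of the 38 genes and 0 of all probe sets (0%). At an unadjusted p under 0.05 there were 2 of the 38 (3.68% of all probe sets). The difference, prepubertal minus adult, was positive for 28 genes (55.6% of all probe sets), with a median of 0.81 over the 38 and 0.16 over all probe sets. For 3 genes (NDUFA7, NDUFB9 and NDUFS7) the prepubertal arrays all lay above the adult ones (6.04% of all probe sets), and for 0 below (3.78%).

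The 6 genes of smallest p in that comparison did not pass (limma adjusted p = 1 for each). NDUFA7 was above background in the 3 prepubertal pools and in no adult pool, a difference of at least 3.37-fold. NDUFB1 differed by 2.94 (95% interval 0.08 to 5.81), with adult replicate 1 low at 8.11. NDUFB11, a distal arm subunit encoded on the X chromosome in humans, had 10.37, 11.92 and 8.65 in prepubertal blastocysts against 4.42, 9.58 and 8.38 in adult blastocysts, a difference of 2.85 (-0.09 to 5.79). The groups overlapped, and adult replicate 1 was at background.

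NDUFA2, a thioredoxin-like accessory subunit, had 11.65, 9.93 and 12.27 in prepubertal blastocysts against 8.36, 10.44 and 6.82 in adult blastocysts, a difference of 2.75 (-0.19 to 5.69). On day 3 it had 4.99, 10.08 and 5.54 in prepubertal 8-16-cell embryos against 9.45, 8.15 and 7.91 in adult 8-16-cell embryos. NDUFA8 had 11.42, 9.36 and 8.76 in prepubertal blastocysts against 4.24, 11.52 and 7.41 in adult blastocysts, a difference of 2.13 (-0.70 to 4.96), and 7.21, 4.74 and 7.00 in prepubertal 8-16-cell embryos against 6.44, 4.43 and 5.43 in adult 8-16-cell embryos, all at background. For both genes the blastocyst groups overlapped. NDUFS1 alone of the 6 ran the other way, at -2.84 (-5.77 to 0.09), with prepubertal replicate 3 at background. Its 2 further probe sets differed by -1.39 and 0.84. The 95% intervals of 4 of the 6 genes included 0, and all 6 reached changes of several fold.

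In 8-16-cell embryos limma again called 0 of the 38 genes, while 0.0125% of all probe sets were higher and 0.00833% lower in the prepubertal group. At an unadjusted p under 0.05 there were 2 of the 38 (9.02% of all probe sets). Positive and negative differences were equal in number, 19 and 19 (67.0% of all probe sets positive), with a median of -0.02 over the 38 and 0.59 over all probe sets. NDUFS1 and NDUFV1 were higher in every prepubertal pool than in every adult pool (10.0% of all probe sets), and NDUFB3 was lower (2.67%). The 2 further NDUFS1 probe sets differed by -1.14 and 1.36.

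NDUFB3 had the smallest p, with the day 3 values given above (7.11, 9.23 and 8.58 in prepubertal against 12.51, 11.50 and 13.14 in adult pools). Its difference was -4.07 (95% interval -6.40 to -1.74), with a limma adjusted p of 0.312 over all probe sets. By its brightest probe set NDUFA5 was at or below background in all 3 prepubertal pools and above it in 2 of 3 adult pools. It was thus at least 1.75-fold lower in prepubertal embryos (limma adjusted p = 0.407). The 2 further NDUFA5 probe sets had differences of 1.14 and 0.74, with no prepubertal array and 0 and 1 adult arrays above background. NDUFS3 and NDUFB1 differed by -2.43 (-5.28 to 0.43, adjusted p = 0.616) and -2.51 (-5.38 to 0.36, adjusted p = 0.604). The 4 genes have in common that they are among those that rose with stage in the prepubertal group, a comparison that shares these 3 arrays.

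NDUFV1 had 8.14, 8.22 and 10.86 in prepubertal 8-16-cell embryos against 6.08, 5.12 and 7.70 in adult 8-16-cell embryos, and did not pass (limma adjusted p = 0.559). Only 1 of the 6 arrays was above background, so no fold is given. In blastocysts NDUFV1 had 9.24, 6.72 and 9.07 in prepubertal pools against 6.46, 7.81 and 4.42 in adult pools. NDUFS4 differed by 2.69 on day 3 (-0.16 to 5.55, adjusted p = 0.578), but all 6 of its day 3 values were at or below background, so no fold is given.

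**Figure D4:**
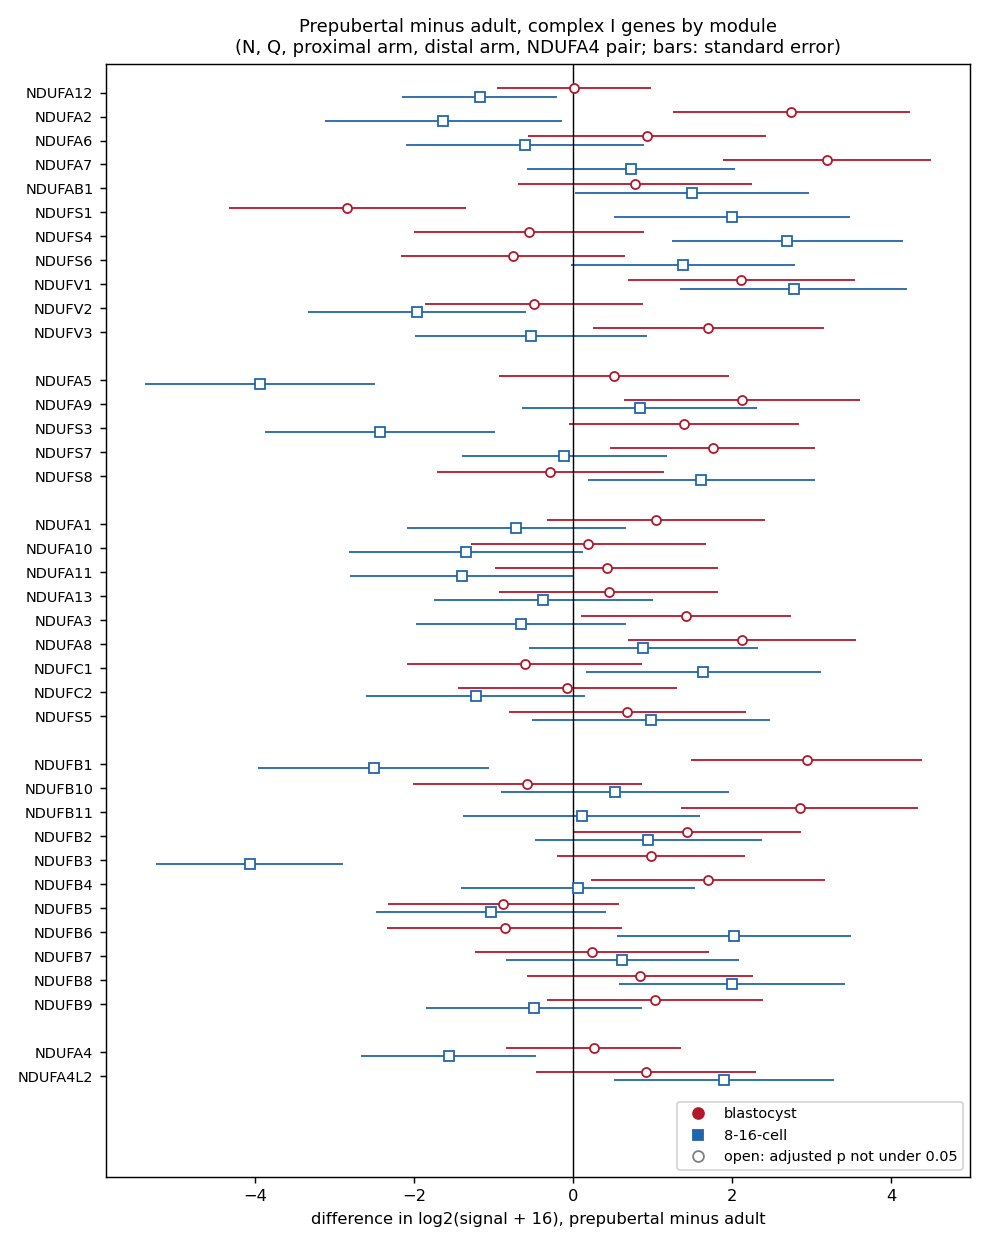
Prepubertal minus adult difference in log2(signal + 16) for each of the 38 complex I genes by module, with its standard error; circles are blastocysts and squares 8-16-cell embryos. Every symbol is open (none passed at an adjusted p under 0.05), blastocyst symbols lie mostly right of 0 and 8-16-cell symbols on both sides.

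Whether the stage difference depended on the donor was tested as the interaction, the prepubertal minus the adult stage difference. limma called 0 of the 38 genes and 0 of all probe sets (0%), and at an unadjusted p under 0.05 there were 5 of the 38 (5.44% of all probe sets). The interaction was positive for 25 genes (40.9% of all probe sets), with a median of 1.26 over the 38 and -0.40 over all probe sets. The 6 smallest p belonged to NDUFB3 at 5.05 (95% interval 1.76 to 8.35, adjusted p = 0.78), NDUFB1 at 5.45 (1.40 to 9.50, adjusted p = 0.873), NDUFS1 at -4.84 (-8.99 to -0.69, adjusted p = 0.873), NDUFA5 at 4.44 (0.41 to 8.48, adjusted p = 0.911), NDUFA2 at 4.38 (0.22 to 8.54, adjusted p = 0.913) and NDUFS3 at 3.82 (-0.22 to 7.85, adjusted p = 0.924). For all but NDUFS1 the stage difference was larger in the prepubertal than in the adult group. The 2 further probe sets of NDUFS1 had interactions of -0.24 and -0.52, and those of NDUFA5 had 0.10 and 0.71. None of these passed once adjusted over all probe sets.

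**Figure D5:**
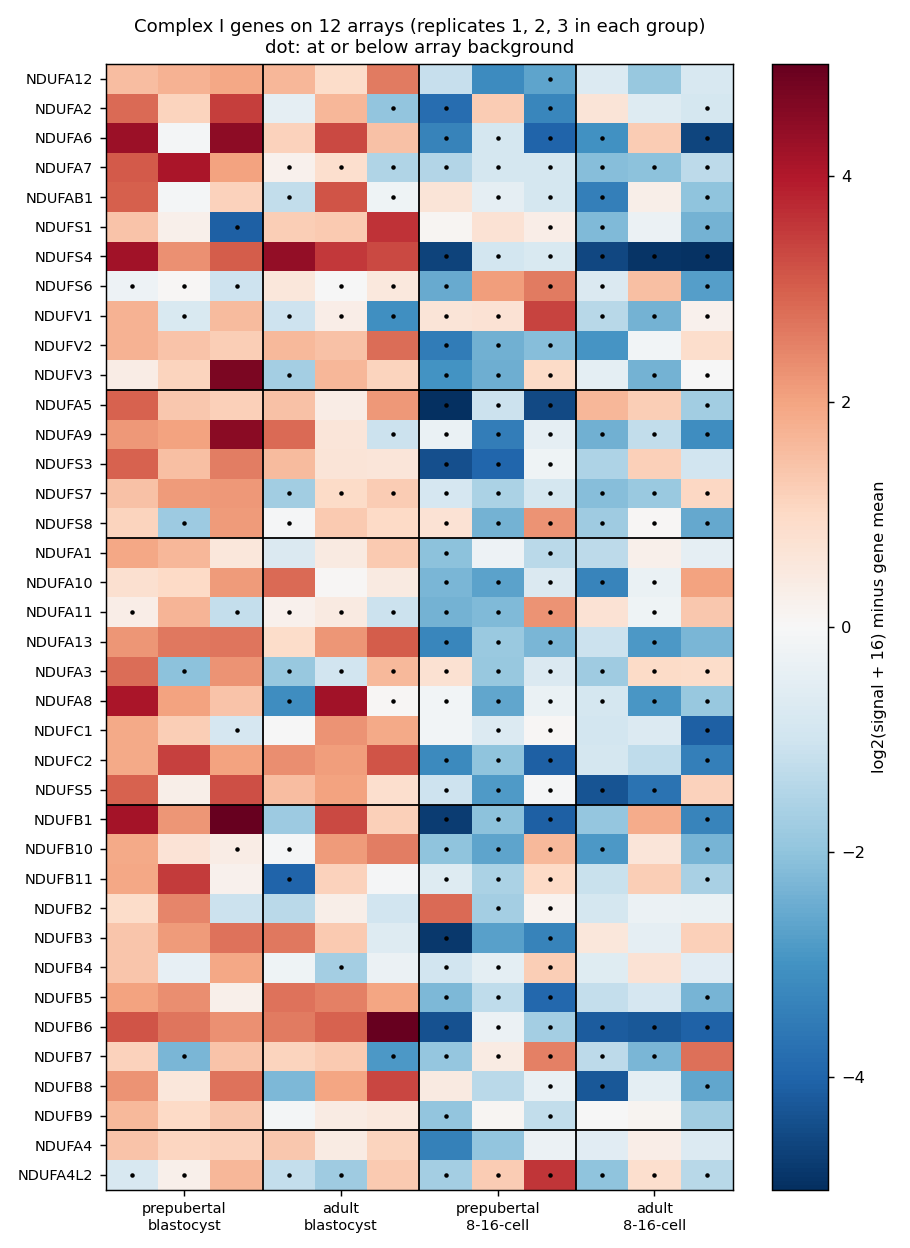
log2(signal + 16) minus the gene's mean over 12 arrays, for the 38 complex I genes (rows, grouped by module) on each array (columns, replicates 1 to 3 in each of 4 groups); dots mark signals at or below array background. Blastocyst columns are mostly red without dots, and prepubertal 8-16-cell columns are mostly dotted.

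Genes around complex I were counted in the same fits. Assembly factors, which build the complex and are not part of it, were measured for 11 genes. In any of the 6 comparisons 0 passed in either direction (0 at an unadjusted p under 0.05 by stage, 1 by donor in blastocysts). With 3.90% of all probe sets higher and 2.51% lower in the average over donors, 0 of 11 is near the share of all probe sets. Above background were 1 to 2 of the 11 on prepubertal and 1 to 4 on adult 8-16-cell arrays, against 3 to 7 and 5 to 6 in blastocysts. The smallest p in the average over donors were those of NDUFAF3 (2.02, limma adjusted p = 0.318), NDUFAF6 (1.73, adjusted p = 0.366) and ECSIT (1.66, adjusted p = 0.405). The enzymes that make NADH in the matrix rose for 4 of 8 in the average over donors, with 0 lower, while 3.90% of all probe sets rose and 2.51% fell. PDHB, a subunit of pyruvate dehydrogenase, rose at least 18.0-fold in the prepubertal (adjusted p = 0.00805) and at least 63.1-fold in the adult group (adjusted p = 4.33e-05). PDHA1, IDH3A and MDH2 were the others.

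Among the parts of the chain that share ubiquinone with complex I, 3 of 4 genes of complex II (SDHA, SDHB and SDHC), 5 of 9 of complex III (UQCRB, UQCRC2, UQCRH, UQCR10 and UQCR11) and 2 of 5 other donors to ubiquinone (ETFA and GPD2) rose in the average over donors, and 0 fell. These shares stand beside 15 of 38 for complex I and 3.90% of all probe sets, and no test compared them. Of 11 genes for mitochondrial biogenesis and DNA maintenance, 0 rose and 1 fell (2.51% of all probe sets fell). This was NRF1, a transcription factor known to bind promoters of many nuclear respiratory genes, which averaged 4.74 ± 0.39 in adult blastocysts and 10.87 ± 1.79 in adult 8-16-cell embryos (SD, n = 3 each). It was at least 7.69-fold lower in adult blastocysts (limma adjusted p = 0.00477), while in the prepubertal group its difference was -0.69 (adjusted p = 0.886). No gene of these lists passed in a donor comparison or the interaction.

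Markers of cell types moved with the stage as well. Of 8 measured trophectoderm markers, 5 rose in the average over donors (KRT8, KRT18, KRT19, PTGS2 and IFNT2) and 0 fell, against 3.90% and 2.51% of all probe sets. Their summed signal was 43153 to 64494 in prepubertal blastocysts against 584 to 1208 in prepubertal 8-16-cell embryos, and 31171 to 60920 in adult blastocysts against 671 to 1027 in adult 8-16-cell embryos; ELF3 was above background on no array. Of 8 oocyte markers 5 fell (BMP15, KPNA7, ZP4, GDF9 and ZP2), and their summed signal was 506 to 3012 in prepubertal blastocysts against 52609 to 266308 in prepubertal 8-16-cell embryos. In the adult group it was 760 to 1627 in blastocysts against 32780 to 57561 in 8-16-cell embryos. How much of the rise of complex I genes goes with the trophectoderm was not tested.

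Cumulus and granulosa cells surround the oocyte and could have been carried over. Of 14 such markers 1 fell in the average over donors (STAR) and 0 rose, against 2.51% and 3.90% of all probe sets. Above background on none of the 12 arrays were 6 of the 14 (AMH, CYP11A1, FSHR, INHA, LHCGR and PTX3). The summed signal of the 14 ran from 1738 to 3100 in prepubertal blastocysts against 2016 to 16633 in prepubertal 8-16-cell embryos. In adult pools it ran from 2850 to 4272 in blastocysts against 1594 to 4488 in 8-16-cell embryos. Of 8 blood and 6 sperm markers, 0 passed in either direction in any comparison. In the average over donors 2 blood and 0 sperm markers were lower at an unadjusted limma p under 0.05, as were 1993 of all 24016 probe sets. In no donor comparison did a marker of any of these cell types pass.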

How the data were processed

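The authors' deposited values are MAS5 signal intensities per probe set, per the submitters' processing notes, which name no version or settings. The trimmed mean of every array lay between 500.195 and 500.306, with 2% of probe sets trimmed at each end. Genes were named from the platform annotation through gene identifiers (38 of 38 members found in RefSeq, 0 symbols changed), and 112 control probe sets were left out. Signals were taken as log2(signal + 16). limma 3.58.1 in R 4.3.3 (lmFit with 4 group means over 12 arrays, then eBayes with trend) left 8 residual and 195.66 prior degrees of freedom. The spread behind each test thus came mostly from probe sets of like signal, and little from the gene itself. Its two-sided moderated test was adjusted by Benjamini-Hochberg over 24016 probe sets at 0.05. The number of arrays, 3 per group, limits the precision: the median standard error of a group difference was 1.30.

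A fold of "at least" is given where no array of the dimmer group was above background. It is the brighter group's mean over the dimmer one's, with each dim signal raised to its array's background. The limma p printed beside it comes from signals that were not raised. It was not established whether Bacillus transcripts had been spiked into these RNAs, in which case this background is set too high. No pairing by replicate number was seen: same-numbered arrays of different groups deviated from their group means with correlations of -0.03 to 0.05 over 18 pairs. These correlations ran over all probe sets, of which 42.6% to 70.8% were above background on no array of a group. A weak link between arrays could thus go unseen.

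Full values are given for every complex I gene that passed in any of the 6 comparisons, and where fewer than 6 passed, the genes of smallest unadjusted p filled the 6 places. Other members are given by range or as extremes of their module, and other lists by the genes that passed or the 3 of smallest p. NDUFA4, NDUFB9 and the genes named for groups that do not overlap were chosen after their values were seen. Members and lists were chosen with earlier results of these data known. The alternatives covered the pseudocount, normalization, filter, floor, array weights, samples in the fit, replicate block, probe set per gene and each array left out. Promoter, protein and probe sequences were not used here.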

Additional observations from a re-analysis of the deposited data

How the results depend on the processing

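Leaving out each array in turn moved the number of complex I genes that passed to between 3 and 10 in the prepubertal stage comparison (9 with all arrays), 2 and 5 in the adult one (2) and 11 and 16 in the average over donors (15), and to 0 in the donor comparisons and the interaction. Raising every signal to the highest background of the 12 arrays (1664), which replicate 3 of the prepubertal 8-16-cell group sets, gave 1, 0 and 5 genes in the 3 stage comparisons, of which 1, 0 and 4 also passed without the floor. The median of the 38 genes relative to all probe sets became 0.58 under that floor in place of 3.51 (prepubertal), 0.16 in place of 1.59 (adult) and 0.31 in place of 2.60 (average). For the donor difference it became 0 in place of 0.65 (blastocyst) and 0 in place of -0.62 (8-16-cell), and for the interaction 0 in place of 1.67. NDUFA8 then had a donor difference of -0.031 in blastocysts in place of 2.13. With that array left out and the floor at 424, chosen after seeing the data, 6, 5 and 9 genes passed, of which 5, 2 and 8 also passed without a floor, and the medians were 1.71, 0.84 and 1.13 by stage, 0 for the donor difference on day 3 and 0.49 for the interaction. A pseudocount of 64 gave medians of 2.90 (prepubertal) and 2.02 (average). In the adult group 5 genes passed after a filter on dim probe sets, with array weights, and with only the groups compared in the fit. With the replicate number as a block, by which no pairing was seen, 9, 2 and 15 genes passed by stage and 0 by donor. All were shared with the fit without it, and the block changed no call of a named gene. NDUFS4, NDUFA12, NDUFA13 and NDUFC2 passed in the average over donors under every alternative tried. With the mean of all probe sets of a gene, NDUFB1 and NDUFS3 no longer passed in it (adjusted p = 0.179 and 0.488), nor did NDUFA7 (0.255). Over all 24016 probe sets the number called ranged from 272 to 611 in the prepubertal comparison, 253 to 794 in the adult one and 1203 to 1671 in the average when single arrays were left out. Signal over background limits the day 3 levels. The genes at or below background on all 3 arrays of a group were 1 (2.63%) in prepubertal and 5 (13.2%) in adult blastocysts. They were 25 (65.8%) in prepubertal and 10 (26.3%) in adult 8-16-cell embryos. Over all probe sets the same shares were 42.6%, 57.7%, 70.8% and 55.4%, so the share in prepubertal 8-16-cell embryos was near that of all probe sets.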
